A study of Homo sapiens with 24 samples.

Results

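The genes described here are the heat shock proteins and chaperones that work mainly in the cytosol, together with the cochaperones that steer them. They were chosen by a rule on symbols that uses no measured value, but with earlier results of these data known. The rule took the HSF, HSPA, HSPB, HSP90, DNAJ and BAG families, the chaperonin subunits TCP1 and CCT2 to CCT8, and HSPH1, HSPD1, HSPE1, CHORDC1, STIP1, AHSA1, FKBP4 and PTGES3. It left out the endoplasmic reticulum genes HSPA5, HSP90B1, DNAJB9, DNAJB11 and DNAJC3. It found 100 genes among 58676 gene IDs, of which 85 had enough counts to be tested. The other 15 had at most 11 counts in any library, among them DNAJB7, DNAJB8, HSPB2, HSPB3, HSPB6 and HSPB8. The name "cytosolic" does not hold for every member. Some act in mitochondria, such as HSPD1, HSPE1, HSPA9 and DNAJA3. Others are endoplasmic reticulum proteins, such as HSPA13, DNAJB12, DNAJB14 and DNAJC10. The prefixes also took HSF2BP and HSPBAP1, which are not known as chaperones.

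RNA was sequenced from 4 human lines of diffuse large B-cell lymphoma, labelled OCI-LY19, U-2932, SU-DHL-10 and OCI-LY3, all of wild-type genotype. TAK-981 blocks the SUMO-activating enzyme and so stops the conjugation of SUMO, a small protein modifier, to other proteins. Each line was sampled at 0 h, the reference, and after 8 h, with 2 libraries per line and time. The comparison asks what TAK-981 does to such cells, with 0 h as the reference. Every library carries TAK-981 as its treatment label, and the time tells treated from untreated. No library at 8 h without the compound was analysed here, so TAK-981 and 8 h in culture cannot be told apart. Its dose is not known from the labels. By its label each line stands for 1 tumour, and the line labelled SU-DHL-10 appears as SU-DHL4 in the design text.

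Gene counts summed to between 16770677 and 24694466 per library. Whether replicates were separate cultures is not said in the labels, and p-values then cover only the spread between these libraries, which may be technical. In bulk RNA, fewer cells of a kind and less RNA per cell cannot be told apart. Levels are in CPM, the count of a gene relative to the library's total, which is TMM-scaled except in the marker sums that follow. All 6 B-cell markers were detected in every group, with a summed level of 1400 to 3851 CPM. This sum was lower at 8 h than at 0 h in OCI-LY3 (2411 and 2452 after 3208 and 3221 CPM), OCI-LY19 (1400 and 1423 after 1706 and 1719 CPM) and U-2932 (1649 and 1674 after 2272 and 2286 CPM). The markers of T and NK cells summed to at most 4.71 CPM, with CD3D at 0 in every group, and those of monocytes and macrophages to at most 2.75 CPM. The 5 markers of epithelium, stroma and endothelium summed to 0.271 to 11.2 CPM in SU-DHL-10 and U-2932. In OCI-LY3 they went from 74.9 and 95.9 CPM to 113 and 118 CPM, and in OCI-LY19 from 80.4 and 92.8 CPM to 162 and 163 CPM, with KRT18 at 0 in both lines. Their part in the results was not tested. Over 17327 genes at 0 h, on the log2(CPM + 1) scale, the line labelled OCI-LY19 correlated with OCI-LY3 at r = 0.984, where every other pair lay between 0.874 and 0.912. Added spike-in RNAs made up 0.0435% to 0.0823% of counts in SU-DHL-10 and OCI-LY3 and 0.382% to 0.62% in OCI-LY19 and U-2932, so differences between these pairs of lines and differences in how the libraries were made cannot be told apart.

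Chaperones bind unfolded proteins and use ATP to help them fold or to hand them on. HSP70 proteins receive their clients from J-domain proteins (DNAJ), release them with the help of nucleotide exchange factors such as the BAG proteins and HSPH1, and pass many of them to HSP90, whose cycle is set by cochaperones. The ring-shaped chaperonin TRiC, built from TCP1 and the CCT subunits, folds actin, tubulin and other proteins. When unfolded proteins build up, the heat shock factor HSF1 is released from chaperones and binds heat shock elements, inverted repeats of the unit NGAAN, in the promoters of these genes.

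A few members rose in every line, while HSPA1B, HSPA8 and the HSP90 genes were not called in OCI-LY3. The breadth of the change differed between the lines. In this text a gene rose or fell where the Benjamini-Hochberg adjusted p of the quasi-likelihood test in edgeR was under 0.05, and a fold change is relative to the bulk of genes in the libraries. Of the 85 members tested, 14 rose and 4 fell in SU-DHL-10, where 6.30% of all 17327 genes tested rose and 6.27% fell. In OCI-LY3, 11 rose and 5 fell, against 13.0% and 12.5% of all genes, so that the share of members that rose (12.9%) was close to that background. In OCI-LY19, 37 rose and 8 fell, against 21.6% and 17.8%. In U-2932, 34 rose and 17 fell, against 25.9% and 25.0%. The median log2 fold change of the members was 0.23 for OCI-LY19, 0.12 for U-2932, -0.03 for SU-DHL-10 and 0.03 for OCI-LY3, and that of all genes tested was 0.00 in each line.

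Scaling by the spike-in totals moved these values. Whether spike-ins were added per cell or per amount of RNA is not known from the labels, so the direction of many changes in U-2932 depends on which scaling is taken. It set the median of all genes at 0.00 for OCI-LY19, 0.70 for U-2932, 0.11 for SU-DHL-10 and 0.20 for OCI-LY3, and the median of the members at 0.22, 0.85, 0.11 and 0.28 in the same order. Members that rose and fell then numbered 29 and 5 for OCI-LY19, 61 and 0 for U-2932, 10 and 0 for SU-DHL-10 and 14 and 1 for OCI-LY3. Of all 17327 genes tested, 2119 rose and 2087 fell for OCI-LY19, and 9049 and 729 for U-2932. For SU-DHL-10 these were 666 and 99, and for OCI-LY3 2891 and 663. The shares of all genes called either way were 24.3%, 56.4%, 4.42% and 20.5% in the same order. Over all genes, the share of higher among called genes went from 54.9% to 50.4% in OCI-LY19, from 51.0% to 92.5% in U-2932, from 50.1% to 87.1% in SU-DHL-10 and from 51.1% to 81.3% in OCI-LY3. Of the members, 17 fell in U-2932 relative to the bulk of genes, and 0 were called lower there with spike-in scaling, where 729 of all genes tested still were. Without TMM scaling, the share of higher among called genes was 26.6% for OCI-LY19, 59.7% for U-2932, 70.6% for SU-DHL-10 and 44.5% for OCI-LY3.

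**Figure D1:**
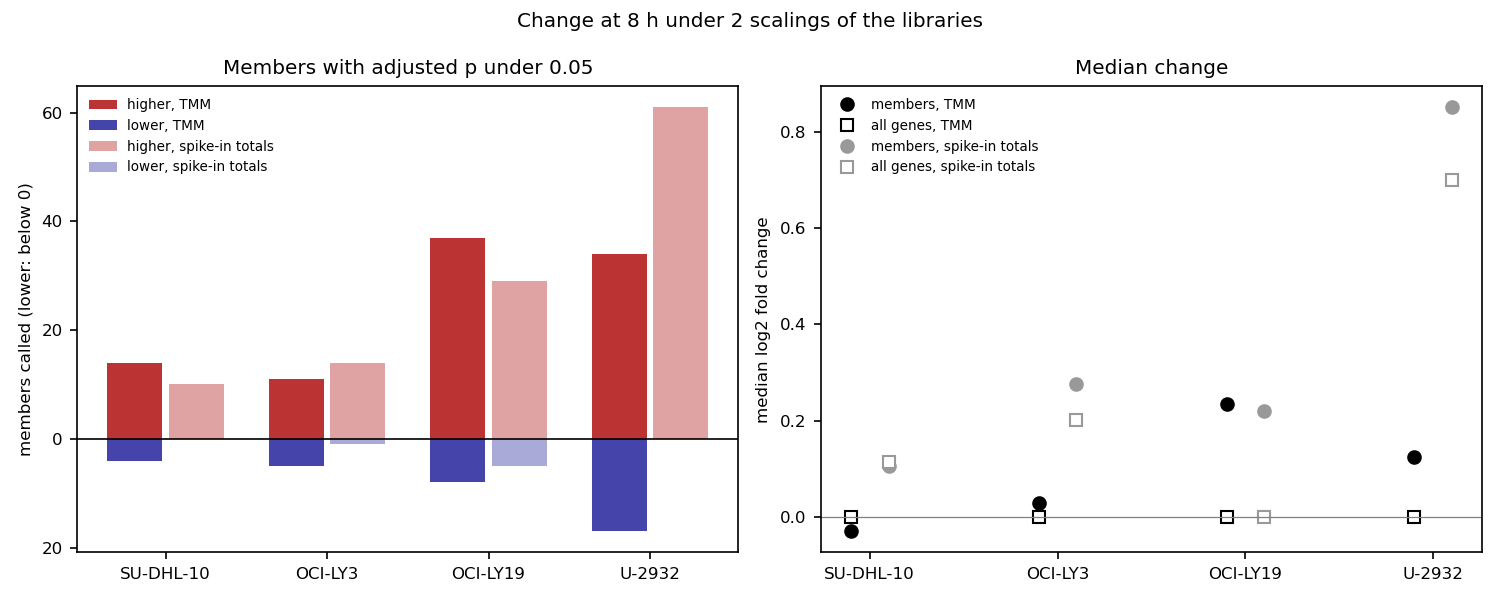
Left: number of the 85 tested members with adjusted p under 0.05 in each line, higher above 0 and lower below 0, with libraries scaled by TMM (dark bars) or by spike-in totals (pale bars). Right: median log2 fold change of the members (circles) and of all genes tested (squares) under both scalings. In U-2932 the members that fell went from 17 to 0 and those that rose from 34 to 61 with spike-in scaling, while the median of all genes went from 0.00 to 0.70.

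Across the lines, 5 members rose in all 4: HSPH1, CHORDC1, FKBP4, DNAJB1 and DNAJB6. Without any 1 of 3 libraries of SU-DHL-10, FKBP4 was not called there, which leaves the other four. The 5 genes are 5.88% of the members tested, against 1.06% of all genes tested. A further 7 rose in 3 lines and did not fall in the other (8.24% against 3.79%), and 0 fell in all 4 lines (0.548% of all genes) or in 3 without rising in the other (2.6% of all genes). In none of the lines were 14 called, which is 16.5% of the members against 31.2% of all genes. The 4 changes come from separate libraries, since each line has its own 0 h samples. At 0 h the line labelled OCI-LY19 correlated with OCI-LY3 at r = 0.984, where every other pair lay at 0.912 or below. Whether these labels stand for separate lines was not tested, so a rise in all 4 may rest on fewer than 4 independent lines.

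**Figure D2:**
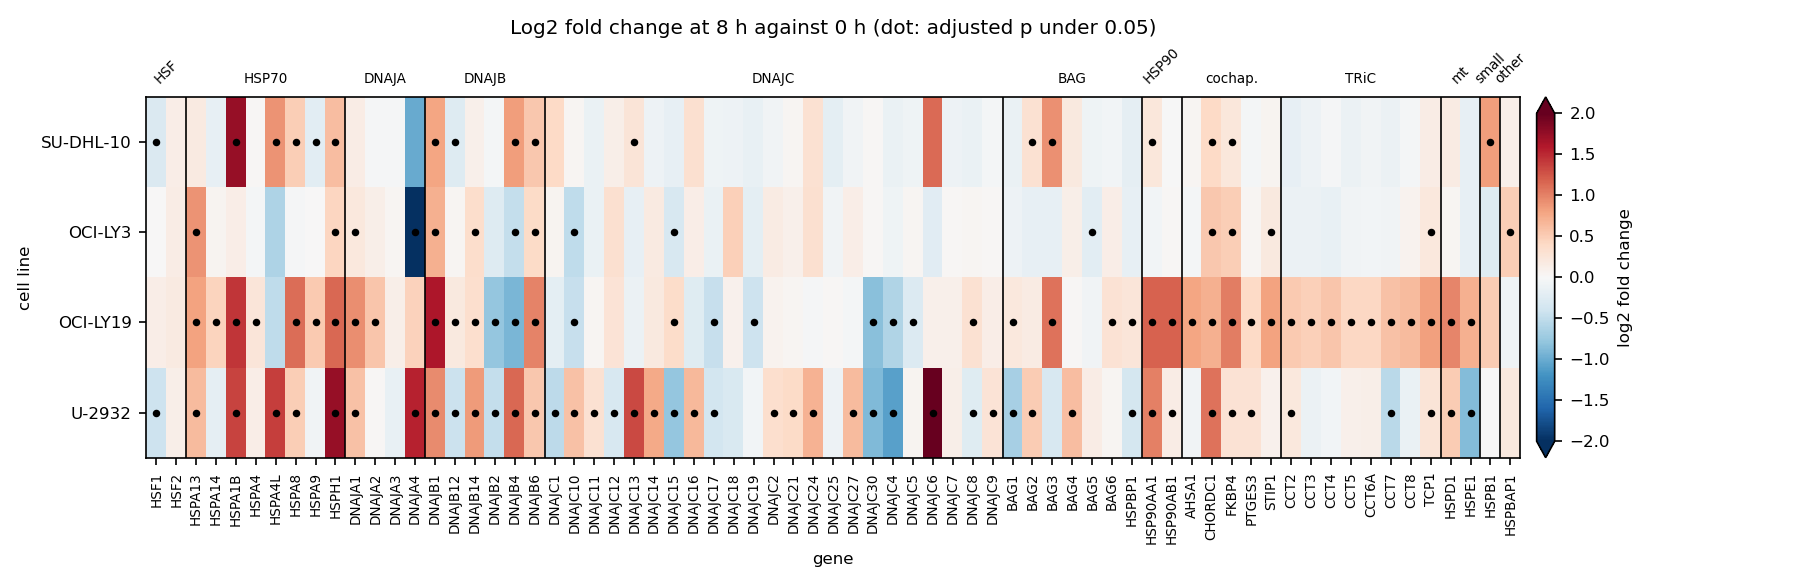
Log2 fold change at 8 h against 0 h (colour, limited to 2 in each direction) for the 69 tested members with a mean of at least 5 CPM over the 16 libraries, in columns grouped by role, and the 4 lines in rows. A dot marks an adjusted p under 0.05. The columns HSPH1, DNAJB1, DNAJB6, CHORDC1 and FKBP4 are red with a dot in every line, and the TRiC columns are red with dots throughout in OCI-LY19 only.

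HSF1, the factor that drives the heat shock response, rose in 0 of 4 lines and fell in 2. Its level in SU-DHL-10 was 164 and 150 CPM at 0 h and 129 and 128 CPM at 8 h. In U-2932 it was 168 and 159 CPM before and 119 and 126 CPM after. In both lines the 8 h libraries lay below the 0 h libraries. The log2 fold change was -0.29 ± 0.07 (standard error, SE, as for all fold changes below) in SU-DHL-10, with adjusted p = 0.00553, and -0.42 ± 0.07 in U-2932, with adjusted p = 9.54e-06. With spike-in scaling these values were -0.14 and 0.31, neither past the threshold. The call in SU-DHL-10 was also lost when 1 library was left out, in 3 of 4 fits. In OCI-LY3 (0.00 ± 0.07) and OCI-LY19 (0.13 ± 0.07) HSF1 was not called, though in OCI-LY19 it was called higher without replicate 2 at 8 h (0.23). HSF2, a partner of HSF1, had changes of 0.12 to 0.17, called in 0 of 4 lines with TMM scaling, and 0.84 with spike-in scaling in U-2932, which was called. Its level there was 14.8 and 14.6 CPM at 0 h and 16.6 and 15.3 CPM at 8 h. HSF4 fell in U-2932 (-1.21 ± 0.30) from 3.30 and 3.27 CPM to 1.44 and 1.39 CPM, and with spike-in scaling had -0.49 and was not called.

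Of the 14 tested members of the HSP70 family and its relative HSPH1, 4 rose and 2 fell in SU-DHL-10, 2 rose and 0 fell in OCI-LY3, 8 rose and 0 fell in OCI-LY19, and 7 rose and 0 fell in U-2932. The shares that rose were 57.1% for OCI-LY19, 50% for U-2932, 28.6% for SU-DHL-10 and 14.3% for OCI-LY3, against 21.6%, 25.9%, 6.30% and 13.0% of all genes, so that in OCI-LY3 the share was near the background. HSPA1B encodes the stress-inducible HSP70. In SU-DHL-10 its level was 4.91 and 7.60 CPM at 0 h and 20.5 and 21.4 CPM at 8 h. In OCI-LY19 it was 75.1 and 76.1 CPM before and 208 and 199 CPM after, and in U-2932 13.8 and 14.8 CPM before and 31.2 and 42.3 CPM after. In these 3 lines the groups did not overlap and the log2 fold change was 1.74 ± 0.14, 1.43 ± 0.10 and 1.36 ± 0.12, with adjusted p of 8.34e-11, 5.09e-14 and 2.73e-11. In OCI-LY3 HSPA1B stood at 65.4 and 73.1 CPM at 0 h and 76.3 and 75.5 CPM at 8 h, a change of 0.13 ± 0.10 that was not called (adjusted p = 0.387). Its 0 h level in OCI-LY3 was close to that in OCI-LY19, which rose from there. The 8 h change differed from that in OCI-LY3 by 1.30 ± 0.14 in OCI-LY19, 1.22 ± 0.16 in U-2932 and 1.61 ± 0.18 in SU-DHL-10, each past the threshold. OCI-LY3 was chosen as the reference line with earlier results known.

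HSPA1A encodes a nearly identical protein, so how reads were divided between HSPA1A and HSPA1B is uncertain. HSPA1A took at most 2.66% of their summed counts in SU-DHL-10, OCI-LY3 and OCI-LY19. In U-2932 it took 40.5% and 41.3% before and 26.8% and 28.8% after treatment. HSPA1A rose in OCI-LY19 (1.92 ± 0.34), where its counts went from 13 and 27 to 87 and 83. In U-2932 its change of 0.52 ± 0.23 missed the threshold (adjusted p = 0.0563) and passed it without replicate 1 at 8 h (0.80, adjusted p = 0.0184) and with spike-in scaling (1.26). HSPA6, a strictly inducible HSP70, was near 0 in 3 lines and rose in U-2932, where its counts were 6 and 4 at 0 h and 45 and 58 at 8 h (2.99 ± 0.75, adjusted p = 0.0011). Its near copy HSPA7 had at most 34 counts in any library.

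HSPA8, the constitutive HSP70, rose in 3 lines. It stood at 2653 and 3000 CPM at 0 h and 4008 and 3937 CPM at 8 h in SU-DHL-10, and at 1719 and 1585 CPM and then 2244 and 2403 CPM in U-2932. In OCI-LY19 it went from 2717 and 2998 CPM to 6236 and 6154 CPM. In each of these lines both 8 h libraries lay above both 0 h libraries. The log2 fold change was 1.12 ± 0.07 in OCI-LY19, 0.49 ± 0.07 in U-2932 and 0.49 ± 0.06 in SU-DHL-10. In OCI-LY3 the level was 4646 and 5153 CPM at 0 h and 4857 and 4802 CPM at 8 h, the groups overlapped, and the change was -0.02 ± 0.06. HSPH1, an HSP110 protein that exchanges the nucleotide of HSP70, rose in all lines, by 1.15 ± 0.07 for OCI-LY19, 1.74 ± 0.08 for U-2932, 0.61 ± 0.07 for SU-DHL-10 and 0.43 ± 0.07 for OCI-LY3. In U-2932 its level was 121 and 133 CPM before and 396 and 453 CPM after. U-2932 started lowest of the 4 lines and OCI-LY3, at 1043 and 1101 CPM, highest.

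**Figure D3:**
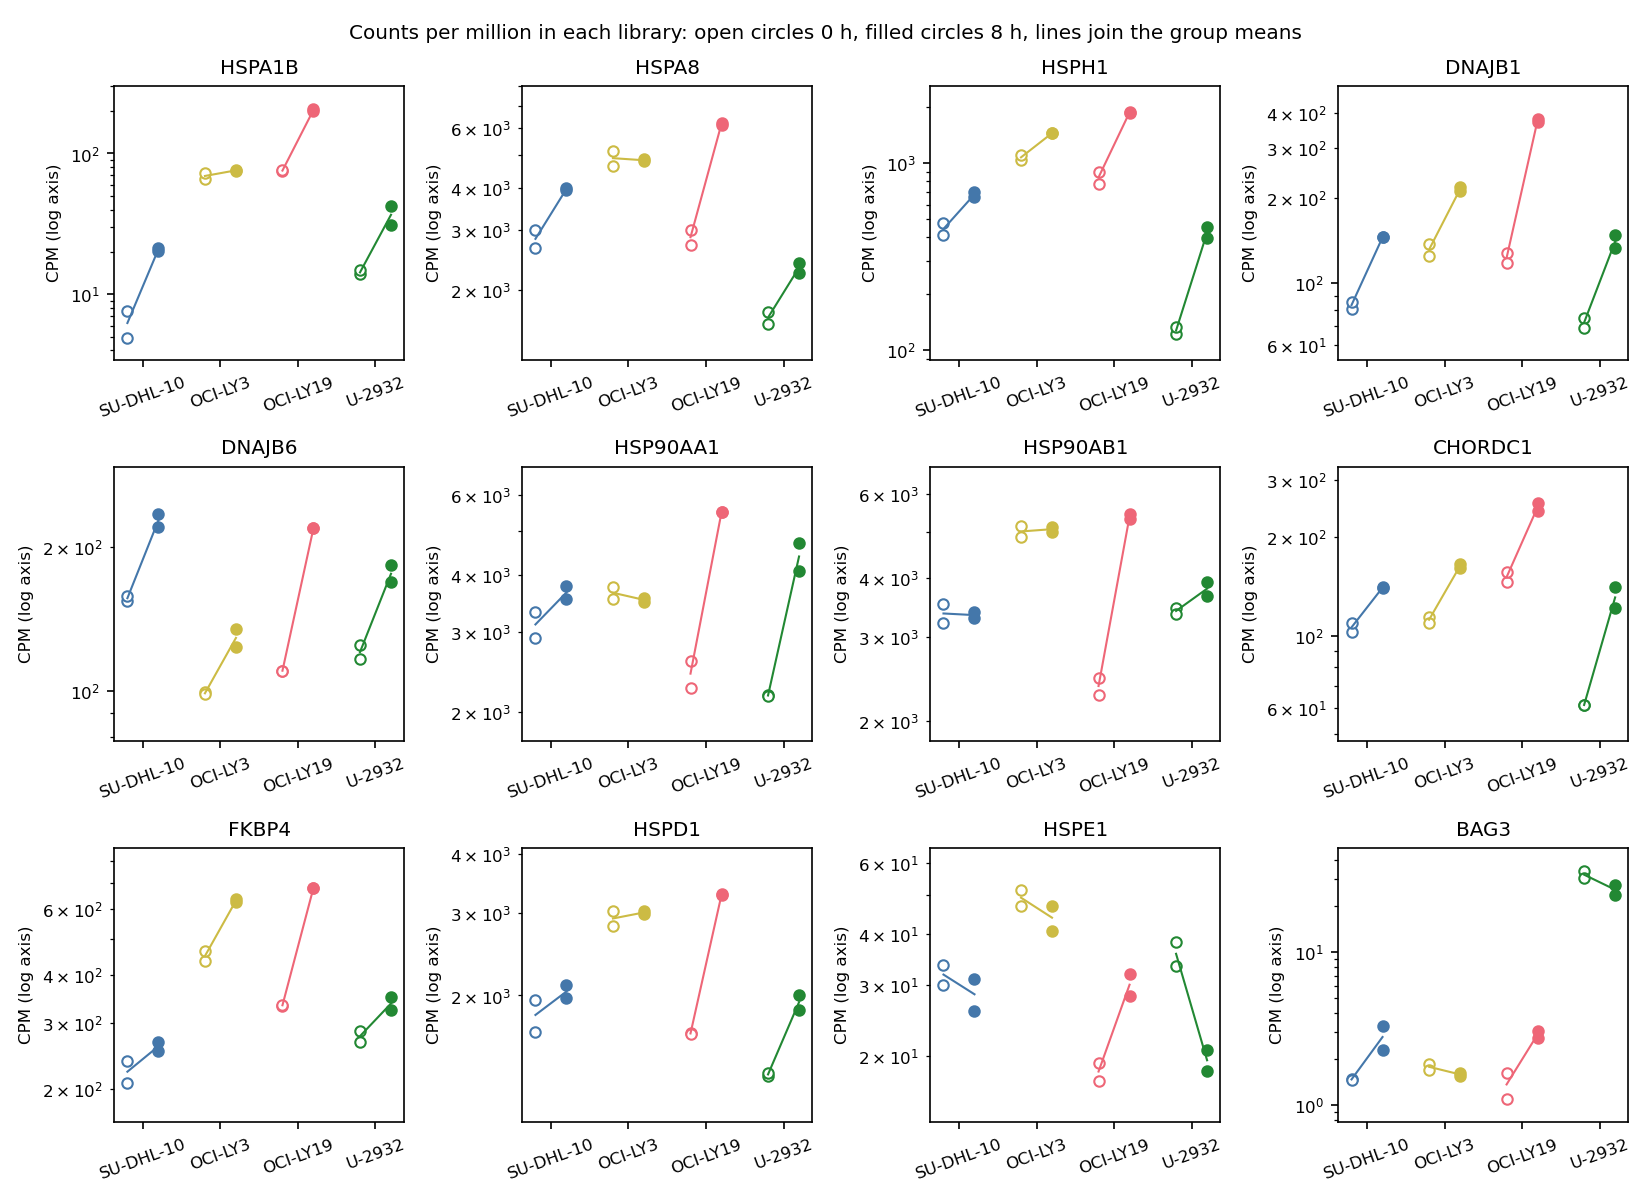
CPM of 12 members in each library, on a log axis, for the 4 lines (x axis); open circles are 0 h, filled circles 8 h, and lines join the group means. HSPH1, DNAJB1, DNAJB6, CHORDC1 and FKBP4 lie higher at 8 h in every line, the HSP90 genes and HSPD1 stay near their 0 h level in OCI-LY3, HSPE1 falls in U-2932 from 38.2 and 33.3 CPM to 18.3 and 20.6 CPM.

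Other HSP70 genes are given by their calls in each line. HSPA4L, an HSP110 relative, rose by 0.90 ± 0.17 in SU-DHL-10 (2.99 and 3.02 CPM, then 5.58 and 5.64 CPM) and by 1.38 ± 0.12 in U-2932 (19.3 and 20.2 CPM, then 49.8 and 53.0 CPM). HSPA13, an HSP70 of microsomes, rose in OCI-LY19 (0.81 ± 0.10), U-2932 (0.63 ± 0.10) and OCI-LY3 (0.90 ± 0.10) and not in SU-DHL-10 (0.18 ± 0.11). The SU-DHL-10 change minus that in OCI-LY3 was -0.72 ± 0.15, past the threshold. HSPA9, the mitochondrial HSP70, rose in OCI-LY19 (0.53 ± 0.07) from 838 and 868 CPM to 1233 and 1222 CPM and fell in SU-DHL-10 (-0.21 ± 0.07) from 728 and 879 CPM to 713 and 678 CPM. That fall was lost in 3 of the 4 fits that left out 1 library of the line, with values of -0.25 to -0.06, and with spike-in scaling (-0.08). HSPA14 and HSPA4 rose in OCI-LY19 by 0.44 ± 0.09 and 0.23 ± 0.06, the latter not with spike-in scaling (0.22), and HSPA2 in U-2932 by 0.79 ± 0.24. HSPA12A fell in SU-DHL-10 (-1.80 ± 0.60) on counts of 33 and 66 at 0 h and 22 and 7 at 8 h, a call lost with spike-in scaling (-1.73).

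J-domain proteins bring clients to HSP70. Of the 4 tested genes of class A, 2 rose and 0 fell in OCI-LY19 and in U-2932, 1 rose and 1 fell in OCI-LY3, and 0 were called in SU-DHL-10. Of the 8 of class B, 4 rose and 2 fell in OCI-LY19, 4 rose and 3 fell in U-2932, and in both OCI-LY3 and SU-DHL-10 3 rose and 1 fell. The class B shares that rose were 50%, 50%, 37.5% and 37.5% for OCI-LY19, U-2932, SU-DHL-10 and OCI-LY3. Those that fell were 25%, 37.5%, 12.5% and 12.5%. Of all genes, 21.6%, 25.9%, 6.30% and 13.0% rose and 17.8%, 25.0%, 6.27% and 12.5% fell. In OCI-LY3 the share that fell was thus at the background. With 4 genes of class A, 1 call is 25%. DNAJB1, the main HSP40 of the heat shock response, stood at 80.9 and 85.6 CPM at 0 h and 145 and 145 CPM at 8 h in SU-DHL-10, and at 125 and 137 CPM and then 210 and 218 CPM in OCI-LY3. In OCI-LY19 it went from 128 and 117 CPM to 381 and 371 CPM, and in U-2932 from 75.2 and 69.3 CPM to 132 and 147 CPM. The groups did not overlap in any line. The log2 fold change was 0.80 ± 0.07, 0.71 ± 0.07, 1.62 ± 0.07 and 0.95 ± 0.07 in this order, with the highest adjusted p at 6.94e-10. DNAJB6, which holds back aggregation, rose by 0.99 ± 0.07 for OCI-LY19, 0.54 ± 0.07 for U-2932, 0.54 ± 0.07 for SU-DHL-10 and 0.38 ± 0.07 for OCI-LY3. DNAJA1 rose in OCI-LY3 (0.22 ± 0.07), OCI-LY19 (0.93 ± 0.07) and U-2932 (0.58 ± 0.07). Its call in OCI-LY3 was lost in 3 of 4 fits that left out 1 library of that line, with values of 0.18 to 0.22. In SU-DHL-10 it had 0.16 ± 0.07 and was not called, and it was called without replicate 2 at 0 h (0.31).

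DNAJB4 rose in some lines and fell in others. It went from 3.66 and 3.89 CPM to 7.17 and 6.34 CPM in SU-DHL-10 (0.84 ± 0.20) and from 3.53 and 7.50 CPM to 12.8 and 12.1 CPM in U-2932 (1.16 ± 0.18). It went from 43.4 and 44.8 CPM to 21.6 and 25.0 CPM in OCI-LY19 (-0.92 ± 0.14) and from 22.9 and 25.9 CPM to 18.4 and 16.5 CPM in OCI-LY3 (-0.48 ± 0.15). It was lower at 0 h in the lines where it rose. The difference between lines had an adjusted p of 1.68e-09. The fall in OCI-LY3 was lost with spike-in scaling (-0.23) and without replicate 2 at 0 h (-0.39) or at 8 h (-0.40), and the rise in SU-DHL-10 without replicate 1 at 8 h (0.75). DNAJA4, which was at most 0.673 CPM in the libraries of the other lines, rose in U-2932 from 21.8 and 24.6 CPM to 64.2 and 71.1 CPM (1.54 ± 0.14). DNAJB2, a J-domain protein with ubiquitin-binding motifs, fell in OCI-LY19 (-0.78 ± 0.10) and in U-2932 (-0.48 ± 0.10, or 0.25 with spike-in scaling). DNAJB14, of the endoplasmic reticulum membrane, rose by 0.34 ± 0.09 in OCI-LY19, 0.86 ± 0.10 in U-2932 and 0.35 ± 0.10 in OCI-LY3, and the OCI-LY19 call was lost with spike-in scaling (0.33). DNAJB12, of the same membrane, rose in OCI-LY19 (0.20 ± 0.08) and fell in SU-DHL-10 (-0.26 ± 0.08) and U-2932 (-0.43 ± 0.08), but the first 2 calls were lost in each fit that left out 1 library of the line and all 3 with spike-in scaling.

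The 25 class C members, which serve many compartments, were called in both directions. In SU-DHL-10 1 rose and 0 fell, in OCI-LY3 0 rose and 2 fell, in OCI-LY19 2 rose and 6 fell, and in U-2932 11 rose and 8 fell. The shares that rose were 8% for OCI-LY19, 44% for U-2932, 4% for SU-DHL-10 and 0% for OCI-LY3, and those that fell 24%, 32%, 0% and 8%, against the shares of all genes given above (21.6%, 25.9%, 6.30% and 13.0% higher, and 17.8%, 25.0%, 6.27% and 12.5% lower). With spike-in scaling the counts in U-2932 were 17 and 0, against 9049 and 729 of all 17327 genes tested. DNAJC13, an endosomal protein, rose in U-2932 from 23.1 and 22.7 CPM to 58.9 and 55.9 CPM (1.32 ± 0.09). DNAJC6, the clathrin-uncoating factor auxilin, rose there from 1.47 and 2.30 CPM to 7.57 and 8.01 CPM (2.03 ± 0.21), and it stood between 50.1 and 70.9 CPM without a call in OCI-LY3 and OCI-LY19. DNAJC10, a disulfide reductase of the endoplasmic reticulum, fell in OCI-LY3 (-0.50 ± 0.06) and OCI-LY19 (-0.46 ± 0.06) and rose in U-2932 (0.59 ± 0.06). The fall in OCI-LY3 was not called with spike-in scaling (-0.26). DNAJC4 (-1.08 ± 0.15), DNAJC30 (-0.89 ± 0.18) and DNAJC15 (-0.78 ± 0.16) fell in U-2932. Scaled by spike-ins they had -0.35, -0.16 and -0.05 and were not called.

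The BAG proteins help HSP70 release its clients. BAG3, which links HSP70 to autophagy and is a heat shock target, had low levels in 3 lines. It rose in OCI-LY19 from 1.10 and 1.63 CPM to 3.04 and 2.75 CPM (1.09 ± 0.25) and in SU-DHL-10 from 1.47 and 1.47 CPM to 2.30 and 3.26 CPM (0.92 ± 0.25, adjusted p = 0.011). In both lines the groups did not overlap. The call in SU-DHL-10 was lost without replicate 1 at 0 h, without replicate 2 at 0 h and without replicate 2 at 8 h (0.92, 0.92 and 0.65). U-2932 had 33.6 and 30.4 CPM of BAG3 at 0 h and 23.7 and 27.4 CPM at 8 h, a change of -0.32 ± 0.14 that was not called (adjusted p = 0.0516). BAG2, which inhibits the ubiquitin ligase that works with HSP70, rose in SU-DHL-10 (0.30 ± 0.08, not called with spike-in scaling at 0.44) and U-2932 (0.50 ± 0.09). BAG1 fell in U-2932 (-0.67 ± 0.06, or 0.06 with spike-in scaling) from 166 and 155 CPM to 99.9 and 102 CPM. It rose in OCI-LY19 (0.21 ± 0.06), a call lost without replicate 1 at 0 h (0.18), without replicate 1 at 8 h (0.19) and with spike-in scaling (0.19), and without TMM the value was -0.03. BAG5 fell in OCI-LY3 (-0.21 ± 0.07), a call lost whichever library of that line was left out, and had 0.04 with spike-in scaling.

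The 8 h change of the HSP90 genes differed between the lines with the smallest adjusted p of all members, 3.01e-14 for HSP90AB1 and 4.00e-13 for HSP90AA1. HSP90AA1 encodes the inducible cytosolic HSP90 and HSP90AB1 the constitutive one. In OCI-LY19 HSP90AA1 went from 2265 and 2595 CPM to 5497 and 5496 CPM (1.18 ± 0.07) and HSP90AB1 from 2276 and 2468 CPM to 5450 and 5310 CPM (1.18 ± 0.06). In U-2932 HSP90AA1 went from 2183 and 2168 CPM to 4091 and 4699 CPM (1.01 ± 0.07), and HSP90AB1 from 3463 and 3355 CPM to 3669 and 3924 CPM (0.16 ± 0.06). The HSP90AB1 call in U-2932 had an adjusted p of 0.027 and was lost without replicate 2 at 0 h (0.14) or replicate 2 at 8 h (0.11). In SU-DHL-10 HSP90AA1 rose by 0.23 ± 0.07, which was lost without replicate 1 at 0 h (0.14), without replicate 1 at 8 h (0.18) and with spike-in scaling (0.36), and HSP90AB1 had -0.01 ± 0.06. In OCI-LY3 neither was called (-0.05 ± 0.07 and 0.02 ± 0.06).

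The ratio of the 2 HSP90 genes within a library does not depend on how libraries are scaled. The log2 of the count ratio of HSP90AA1 to HSP90AB1 in U-2932 was -0.67 and -0.63 before and 0.16 and 0.26 after treatment. In SU-DHL-10 it was -0.14 and -0.08 before and 0.16 and 0.10 after. In both lines the ratio was higher in every 8 h library than in every 0 h library. In OCI-LY19 it was -0.01 and 0.07 before and 0.01 and 0.05 after, and in OCI-LY3 -0.46 and -0.45 before and -0.49 and -0.55 after. OCI-LY19 kept its ratio while both genes rose. With 2 against 2 libraries no exact permutation test within a line can pass 0.05, and none was run.

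**Figure D4:**
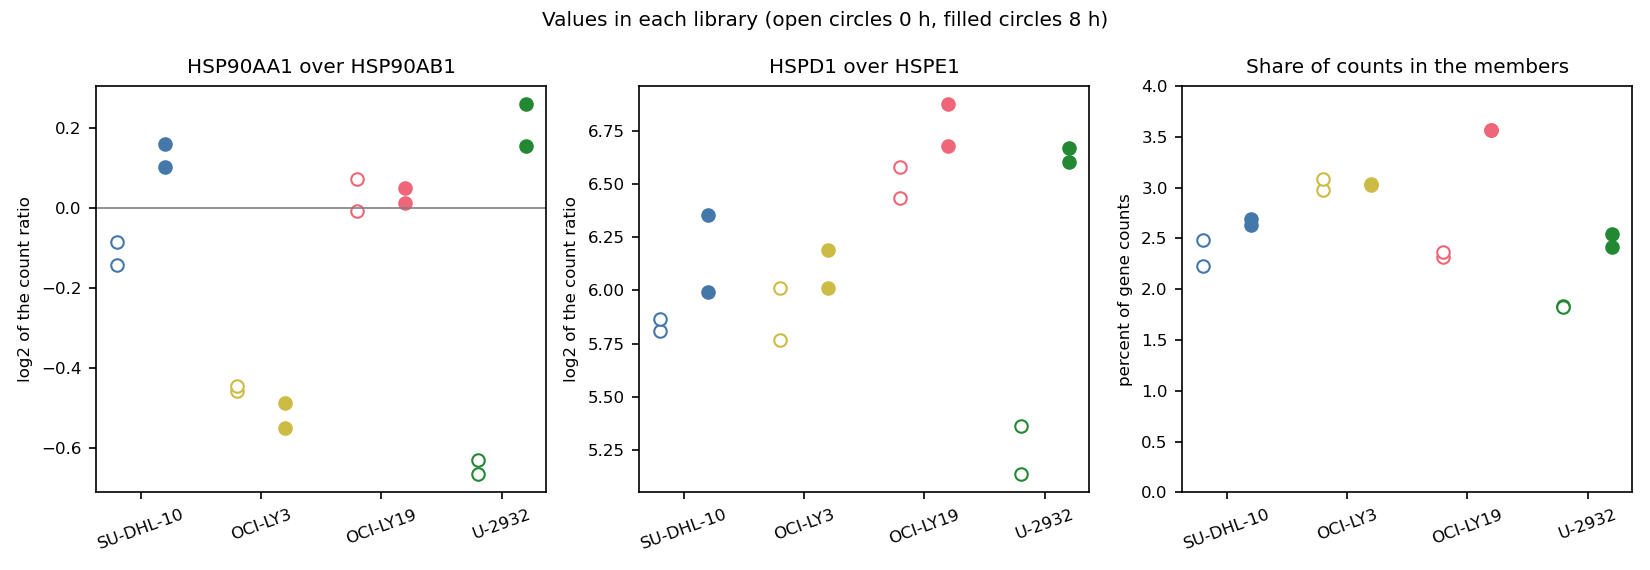
Values in each of the 16 libraries by line (x axis), open circles 0 h and filled circles 8 h: log2 count ratio of HSP90AA1 to HSP90AB1 (left), log2 count ratio of HSPD1 to HSPE1 (middle) and the percent of gene counts in the 100 members (right). The left ratio rises in U-2932 from -0.67 and -0.63 to 0.16 and 0.26, the middle one from 5.14 and 5.36 to 6.67 and 6.60, and the share in OCI-LY19 rises from 2.32% and 2.36% to 3.56% and 3.57%.

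The 5 HSP90 cochaperones named by the rule all rose in OCI-LY19, 3 rose in OCI-LY3 and in U-2932, 2 rose in SU-DHL-10, and 0 fell in any line. The shares that rose were 100% for OCI-LY19, 60% for U-2932, 40% for SU-DHL-10 and 60% for OCI-LY3, against 21.6%, 25.9%, 6.30% and 13.0% of all genes. CHORDC1, which binds HSP90 and is also known as morgana, stood at 103 and 109 CPM at 0 h and 140 and 141 CPM at 8 h in SU-DHL-10, and at 114 and 109 CPM and then 166 and 161 CPM in OCI-LY3. In OCI-LY19 it went from 146 and 156 CPM to 240 and 254 CPM, and in U-2932 from 61.6 and 61.2 CPM to 121 and 140 CPM. No groups overlapped, and the changes were 0.40 ± 0.07, 0.55 ± 0.07, 0.71 ± 0.07 and 1.09 ± 0.07. FKBP4, an immunophilin of steroid receptor complexes, rose by 1.03 ± 0.07 for OCI-LY19, 0.29 ± 0.07 for U-2932, 0.22 ± 0.07 for SU-DHL-10 and 0.49 ± 0.06 for OCI-LY3. The SU-DHL-10 call had an adjusted p of 0.0201 and was lost in 3 of 4 fits that left out 1 library, with values of 0.13 to 0.27. It was also lost with spike-in scaling, where the value was 0.35.

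STIP1, which bridges HSP70 and HSP90, rose in OCI-LY19 from 409 and 434 CPM to 745 and 722 CPM (0.80 ± 0.07) and in OCI-LY3 from 465 and 486 CPM to 539 and 554 CPM (0.20 ± 0.07, adjusted p = 0.0346). The OCI-LY3 call was lost whichever library of that line was left out (0.17 to 0.24). AHSA1, which speeds the ATPase of HSP90, rose in OCI-LY19, from 204 and 192 CPM to 343 and 340 CPM (0.79 ± 0.06). That change was 0.83 ± 0.09 above the one in OCI-LY3, and the other lines had -0.07 to 0.03 with TMM scaling. With spike-in scaling AHSA1 also rose in U-2932 (0.66). PTGES3, the p23 cochaperone that stabilises closed HSP90, rose in OCI-LY19 from 632 and 601 CPM to 799 and 820 CPM (0.39 ± 0.06) and in U-2932 from 527 and 533 CPM to 635 and 657 CPM (0.29 ± 0.06).

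Of the 9 tested genes of TRiC, 8 rose in OCI-LY19, or 88.9% against 21.6% of all genes. With TMM scaling these 8 changes ran from 0.41 ± 0.06 (CCT6A) to 0.81 ± 0.06 (TCP1), and the remaining gene, CCT6B, had low counts. Spike-in and total-count scaling also called 8, with a median over the 9 genes of 0.51 and 0.28, beside 0.52 with TMM. In SU-DHL-10 0 of 9 were called, and in OCI-LY3 1 rose (11.1% against 13.0%). That was TCP1, from 1089 and 1135 CPM to 1280 and 1297 CPM (0.21 ± 0.06), and its call was lost in 3 of 4 fits that left out 1 library. In U-2932 TCP1 (0.25 ± 0.06) and CCT2 (0.22 ± 0.06) rose, the former not without replicate 2 at 8 h (0.18). CCT7 fell in U-2932 from 724 and 681 CPM to 479 and 492 CPM (-0.53 ± 0.06) while it rose in OCI-LY19 from 513 and 498 CPM to 767 and 752 CPM (0.59 ± 0.06). The change of CCT7 in U-2932 was 0.19 and not called with spike-in scaling, where 7 of 9 TRiC genes rose there and 0 fell. Of all 17327 genes tested, 9049 rose and 729 fell in U-2932 with that scaling. CCT6A shares sequence with pseudogenes, of which CCT6P1 had up to 659 counts.

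**Figure D5:**
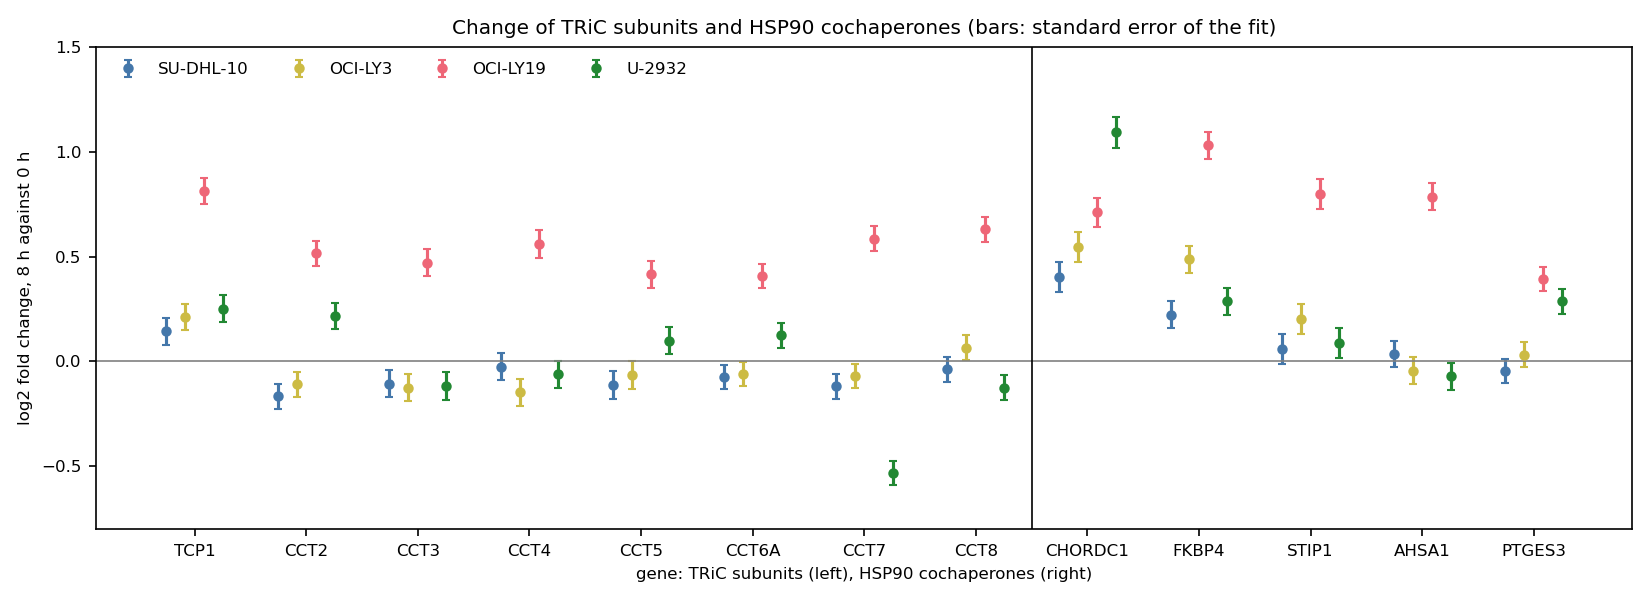
Log2 fold change at 8 h against 0 h with its standard error (bars) for 8 TRiC subunits (left of the line) and 5 HSP90 cochaperones (right), in the 4 lines (colours). The points of OCI-LY19 lie at 0.39 or above for all 13 genes, and CCT7 in U-2932 lies at -0.53.

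The counts of the mitochondrial chaperonin HSPD1 and of its lid HSPE1 did not move alike. HSPD1 rose in OCI-LY19 from 1664 and 1655 CPM to 3290 and 3270 CPM (0.98 ± 0.06) and in U-2932 from 1345 and 1369 CPM to 1864 and 2006 CPM (0.51 ± 0.06). HSPE1 rose in OCI-LY19 from 19.2 and 17.3 CPM to 28.0 and 31.9 CPM (0.71 ± 0.12) and fell in U-2932 from 38.2 and 33.3 CPM to 18.3 and 20.6 CPM (-0.87 ± 0.11). The fall in U-2932 was not called with spike-in scaling (-0.15). The log2 count ratio of HSPD1 to HSPE1, which has no scaling, was 5.14 and 5.36 before and 6.67 and 6.60 after treatment in U-2932. It was 6.44 and 6.58 before and 6.87 and 6.68 after in OCI-LY19, and 5.81 and 5.87 before and 6.36 and 5.99 after in SU-DHL-10, so in these 3 lines both 8 h libraries lay above both 0 h libraries. In OCI-LY3 it was 5.77 and 6.01 before and 6.01 and 6.19 after, and the groups overlapped. HSPE1 is overlapped by the readthrough gene HSPE1-MOB4, listed at 0 counts in every library, and how reads of shared exons were assigned is not known from the labels. HSPE1 had 340 to 948 counts in a library, where HSPD1 had 22831 to 75684. Whether reads of HSPE1 were lost was not tested, so its change and its ratio to HSPD1 may not be those of its RNA.

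Of the small heat shock proteins, HSPB1, which binds unfolded proteins without ATP, was measured well in SU-DHL-10 and U-2932. It rose in SU-DHL-10 from 5.67 and 5.27 CPM to 10.5 and 9.16 CPM (0.84 ± 0.17), and in U-2932 it stood at 39.1 and 37.1 CPM and then 33.1 and 43.4 CPM (0.01 ± 0.14). In OCI-LY3 and OCI-LY19 it was at most 0.36 CPM. HSPB7 and HSPB9 had at most 28 counts in a library and were not called.

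The promoters of some of these genes hold the heat shock element in a form that few promoters have. Windows of 300 bases, from 250 before to 50 after a start, were taken from RefSeq (GRCh38.p14) for the 88 members that have one, 118 windows in all, since some genes have several. The other 12 members are named only. An element of 3 units was searched as GAANNTTCNNGAA or TTCNNGAANNTTC, patterns that are each other's reverse complement and so cover both strands. It was present in 172 of 35116 windows (0.49%) and in 6.78% of the members' windows. These belong to 8 members: HSPA6, HSPA8, DNAJA1, DNAJB6, HSP90AA1, HSP90AB1, CHORDC1 and HSPD1. The shorter element of 2 units, GAANNTTC or TTCNNGAA, lies inside the longer one. It was present in 13.49% of all windows and in 25.4% of the members' windows, which belong to 29 members. The 3-unit element was found in 8 members. One matching window of each of these 8 members is printed, with the bases of the 3-unit matches in capitals.

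HSPA6, chr1:161524290-161524589, plus strand: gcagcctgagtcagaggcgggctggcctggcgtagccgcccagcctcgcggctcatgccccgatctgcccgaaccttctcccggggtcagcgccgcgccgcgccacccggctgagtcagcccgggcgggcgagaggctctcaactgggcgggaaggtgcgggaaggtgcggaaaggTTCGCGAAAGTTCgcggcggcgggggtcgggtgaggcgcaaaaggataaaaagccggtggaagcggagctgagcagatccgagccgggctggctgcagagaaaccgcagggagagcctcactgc
HSPA8, chr11:123062087-123062386, minus strand: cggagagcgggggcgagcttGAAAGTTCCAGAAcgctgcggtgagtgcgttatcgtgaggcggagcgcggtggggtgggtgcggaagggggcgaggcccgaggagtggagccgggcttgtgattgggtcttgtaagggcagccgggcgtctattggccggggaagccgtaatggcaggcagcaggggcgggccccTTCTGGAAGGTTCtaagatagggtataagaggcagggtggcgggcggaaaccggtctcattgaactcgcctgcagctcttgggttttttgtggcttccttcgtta
DNAJA1, chr9:33025023-33025322, plus strand: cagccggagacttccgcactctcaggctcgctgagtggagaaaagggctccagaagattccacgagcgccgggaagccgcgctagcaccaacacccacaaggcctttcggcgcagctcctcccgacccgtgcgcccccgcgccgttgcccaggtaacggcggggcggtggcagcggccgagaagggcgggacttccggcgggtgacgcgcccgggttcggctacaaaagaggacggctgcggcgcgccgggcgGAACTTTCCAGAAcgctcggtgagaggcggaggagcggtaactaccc
CHORDC1, chr11:90223000-90223299, minus strand: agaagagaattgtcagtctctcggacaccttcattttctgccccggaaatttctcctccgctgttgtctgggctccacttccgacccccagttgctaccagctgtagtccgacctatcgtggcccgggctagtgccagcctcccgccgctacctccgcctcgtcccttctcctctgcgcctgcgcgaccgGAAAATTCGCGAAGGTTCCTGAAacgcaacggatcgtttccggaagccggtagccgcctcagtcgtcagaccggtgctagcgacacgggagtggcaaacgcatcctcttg
DNAJB6, chr7:157336754-157337053, plus strand: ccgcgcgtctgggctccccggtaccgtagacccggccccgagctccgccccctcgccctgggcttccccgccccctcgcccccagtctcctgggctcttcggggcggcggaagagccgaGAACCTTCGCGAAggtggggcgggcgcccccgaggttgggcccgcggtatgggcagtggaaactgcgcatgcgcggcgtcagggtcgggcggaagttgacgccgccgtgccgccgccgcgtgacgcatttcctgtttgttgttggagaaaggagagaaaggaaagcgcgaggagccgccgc
HSP90AA1, chr14:102086995-102087294, minus strand: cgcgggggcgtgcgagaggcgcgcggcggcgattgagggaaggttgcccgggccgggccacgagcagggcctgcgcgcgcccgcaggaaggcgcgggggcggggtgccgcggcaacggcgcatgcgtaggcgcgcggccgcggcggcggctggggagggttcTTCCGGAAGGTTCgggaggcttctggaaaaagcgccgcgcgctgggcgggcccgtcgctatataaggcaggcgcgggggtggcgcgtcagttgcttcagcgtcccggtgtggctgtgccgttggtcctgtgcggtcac
HSP90AB1, chr6:44247693-44247992, plus strand: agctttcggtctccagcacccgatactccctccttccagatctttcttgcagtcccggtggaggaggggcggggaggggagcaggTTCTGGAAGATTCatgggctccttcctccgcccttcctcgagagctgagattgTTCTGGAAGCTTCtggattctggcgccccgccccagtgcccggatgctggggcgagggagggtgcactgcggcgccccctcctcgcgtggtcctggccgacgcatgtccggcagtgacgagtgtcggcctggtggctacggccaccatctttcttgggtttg
HSPD1, chr2:197499791-197500090, minus strand: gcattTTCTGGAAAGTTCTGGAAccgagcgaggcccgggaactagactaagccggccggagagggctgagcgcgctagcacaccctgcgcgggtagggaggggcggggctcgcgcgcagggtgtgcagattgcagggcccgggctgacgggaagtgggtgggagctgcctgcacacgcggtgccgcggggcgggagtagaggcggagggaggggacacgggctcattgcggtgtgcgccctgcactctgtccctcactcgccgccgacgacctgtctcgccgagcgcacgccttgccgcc

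The CHORDC1 window holds 3 overlapping matches that together make a run of 23 bases. HSPA8 and HSP90AB1 hold 2 separate matches each, and the HSPD1 run of 18 bases is 2 overlapping matches at the far end of its window. All 8 members with the 3-unit element were tested, and the number that rose was 7 for OCI-LY19, 8 for U-2932, 4 for SU-DHL-10 and 3 for OCI-LY3, with 0 that fell. Of 48 other tested genes with this element, 3 rose and 5 fell in SU-DHL-10, 9 rose and 1 fell in OCI-LY3, 20 rose and 1 fell in OCI-LY19, and 12 rose and 15 fell in U-2932. Over the 11471 tested genes outside the family that have a window, the shares that rose were 7.5%, 15.2%, 24.8% and 29.5% in the same order. Those that fell were 7.58%, 14.1%, 19.6% and 27.6%. Of the 75 tested members with a window, with or without the element, 17.3%, 13.3%, 45.3% and 41.3% rose. Of these 75, 4%, 6.67%, 10.7% and 18.7% fell. DNAJB1, which rose in every line, holds only the 2-unit form in its 3 windows, and the single window of HSPH1 holds neither. HSPA1A and HSPA1B each hold 1 match of the 2-unit form, GAATATTC. A match is a sequence of letters and does not show that a factor binds there, and a window without one says only that these letters are not in it.

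The change differed between lines for most members. In the test of that difference over the 4 lines, 63 of 85 members passed the threshold, against 53.5% of all genes. Taken against OCI-LY3, the change in SU-DHL-10 was higher for 8 members and lower for 1, against 6.89% and 7.28% of all genes. In OCI-LY19 it was higher for 31 and lower for 3, against 9.71% and 5.74%, and in U-2932 it was higher for 23 and lower for 12, against 20.6% and 17.4%. These 3 contrasts share the OCI-LY3 libraries. That line was made the reference because earlier results of these data showed little median change of heat shock genes in it. An excess of higher over lower differences among the members is thus partly built into that choice. With spike-in scaling the counts of members higher and lower were 6 and 3 for OCI-LY19, 38 and 1 for U-2932, and 2 and 1 for SU-DHL-10. Of all 17327 genes tested they were 150 and 733, 5132 and 727, and 390 and 441 in the same order. After the HSP90 genes, the smallest adjusted p of the difference belonged to DNAJC10 (1.85e-12), HSPH1 (4.07e-12), CCT7 (4.23e-12), DNAJC13 (6.60e-12), HSPA8 (3.55e-11) and HSPD1 (2.26e-10).

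Levels before treatment also differed. At 0 h 79 of 85 members (92.9%) differed between the lines, which is near the 87.3% of all genes. BAG3 and DNAJA4 were higher in U-2932, at 30.4 to 33.6 CPM and 21.8 to 24.6 CPM, against at most 1.85 CPM and 0.673 CPM in 0 h libraries of the other lines. HSPH1, TCP1 and HSPA8 were lowest in U-2932 at 0 h. The members together took 2.98% and 3.09% of gene counts in OCI-LY3 at 0 h, more than in any other line at that time, and 3.04% and 3.02% at 8 h. They took 2.32% and 2.36% and then 3.56% and 3.57% in OCI-LY19, 2.22% and 2.48% and then 2.69% and 2.63% in SU-DHL-10, and 1.84% and 1.83% and then 2.41% and 2.55% in U-2932. The 8 h share lay above the 0 h share in 3 lines and within its range in OCI-LY3.

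Related folding genes outside the family, listed by name with earlier results of these data known by role, are given by their counts. Of the 6 subunits of prefoldin, which hands clients to TRiC, 3 rose and 0 fell in OCI-LY19, and 1 rose and 4 fell in U-2932, 0 rose and 1 fell in SU-DHL-10, and 1 rose and 1 fell in OCI-LY3. The shares that rose were 50% for OCI-LY19, 16.7% for U-2932, 0% for SU-DHL-10 and 16.7% for OCI-LY3, against 21.6%, 25.9%, 6.30% and 13.0% of all genes, and 66.7% fell in U-2932 against 25.0%. Of 22 further cochaperones of HSP90 and HSP70, 11 rose and 2 fell in OCI-LY19, 5 rose and 10 fell in U-2932, 6 rose and 2 fell in OCI-LY3, and 2 rose and 1 fell in SU-DHL-10. Their shares that rose were 50% for OCI-LY19, 22.7% for U-2932, 9.09% for SU-DHL-10 and 27.3% for OCI-LY3, so that the one in U-2932 was near the background there, while 45.5% fell. In OCI-LY19 these cochaperones numbered 7 higher and 2 lower with spike-in scaling and 7 and 7 without TMM. CDC37, which brings kinases to HSP90, rose in OCI-LY19 (1.01 ± 0.07) and OCI-LY3 (0.38 ± 0.07) and fell in U-2932 (-0.90 ± 0.07). ST13, an HSP70 cochaperone, rose in all 4 lines, by 0.54 ± 0.06 for OCI-LY19, 0.39 ± 0.06 for U-2932, 0.26 ± 0.06 for SU-DHL-10 and 0.24 ± 0.06 for OCI-LY3. Of 4 genes of stress ubiquitin and aggregate clearance, all rose in OCI-LY19, led by SQSTM1 (1.41 ± 0.06) and the polyubiquitin gene UBB (1.08 ± 0.13). In U-2932 1 rose and 3 fell, where SQSTM1 had -1.02 ± 0.07 and UBB -1.40 ± 0.13. In SU-DHL-10 0 rose and 1 fell, and in OCI-LY3 1 rose and 0 fell. With 4 genes, 1 call is 25% of the list. With spike-in scaling, the lower calls in U-2932 numbered 0 of 6 prefoldin genes, 0 of 22 cochaperones and 1 of 4 genes of the last list.

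Of 8 mitochondrial protease and chaperone genes, 6 rose and 1 fell in OCI-LY19 (3 and 0 with spike-in scaling), and 2 rose and 6 fell in U-2932 (3 rose and 0 fell with spike-in scaling). In SU-DHL-10 0 rose and 0 fell, and in OCI-LY3 2 rose and 1 fell. The shares that rose were 75% for OCI-LY19, 25% for U-2932, 0% for SU-DHL-10 and 25% for OCI-LY3, against 21.6%, 25.9%, 6.30% and 13.0% of all genes, and 75% fell in U-2932 against 25.0%. Of the 5 endoplasmic reticulum genes that the rule leaves out, 5 rose and 0 fell in OCI-LY19, 3 rose and 0 fell in OCI-LY3, and in SU-DHL-10 and U-2932 1 rose and 3 fell. The 3 that fell are 60% of the list, against 25.0% of all genes for U-2932 and 6.27% for SU-DHL-10. HSPA5, the HSP70 of that compartment, had -0.53 ± 0.06 in U-2932 and -0.92 ± 0.06 in SU-DHL-10, beside 1.36 ± 0.12 and 1.74 ± 0.14 for HSPA1B in the same lines. In U-2932 none of these 5 genes fell with spike-in scaling.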

How the data were processed

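Raw read counts per gene ID, deposited by the authors, were used for 16 RNA libraries. Per the labels' protocols, RNA was enriched for poly(A) and PCR duplicates were removed. The submitters' processing notes list Trimmomatic, Bowtie2, DESeq2, HOMER, bedtools and MACS2, and as builds hg19 and GRCh38, without roles. The program that counted reads and its annotation are not given in the sources used here. ATAC libraries were not analysed here. Symbols matched 58207 of 58676 gene IDs, and IDs without one held at most 0.14% of gene counts. The members, the gene lists and OCI-LY3 as the reference line were chosen with earlier results of these data known.

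Genes were kept with filterByExpr (17327) and tested with edgeR 4.0.16 in R 4.3.3: TMM scaling, 1 model over 8 groups of 2 libraries with 8 residual degrees of freedom, the quasi-likelihood F test, and Benjamini-Hochberg adjustment over all genes tested, at 0.05. The standard error was taken as the absolute log2 fold change over the root of F. The median biological coefficient of variation was 8.54%. The procedure was checked on simulated counts. A fixed set of members was followed gene by gene through the alternatives below. So were the largest called changes per line with a mean of at least 5 CPM and the smallest p of the difference between lines. Other genes named here, such as HSF4, HSPA2, DNAJB14, DNAJC6 and BAG2, were not followed gene by gene when 1 library was left out. Other scalings, filters, DESeq2 1.42.0, a replicate block, single-line fits and leaving out each library were run as alternatives.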

Additional observations from a re-analysis of the deposited data

Results flagged for a closer look

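The 8 h change differed between the 4 lines for 63 of the 85 members tested, by the 3-degree-of-freedom test of the difference in edgeR with Benjamini-Hochberg adjustment. Of these, 11 were called in opposite directions in different lines with TMM scaling, which is 12.9% of the members tested, against 17.9% of all genes. Their adjusted p of the difference was 1.846e-12 for DNAJC10, 4.227e-12 for CCT7, 1.679e-09 for DNAJB4, 5.979e-09 for BAG1, 7.615e-09 for HSPE1 and 1.52e-07 for HSPA9. It was 2.156e-05 for DNAJA4, 4.275e-05 for DNAJC15, 5.95e-05 for DNAJB12, 0.0001045 for DNAJC8 and 0.0004791 for HSPBP1. The fall of DNAJA4 in OCI-LY3 rests on 12 and 7 counts at 0 h and 3 and 2 at 8 h. DNAJC8, a splicing-associated J-domain protein, rose in OCI-LY19 (0.30) and fell in U-2932 (-0.23). HSPBP1, an exchange factor of HSP70, rose in OCI-LY19 (0.24) and fell in U-2932 (-0.36). With spike-in scaling both had a higher call in U-2932 (0.49 and 0.37) and neither was called in OCI-LY19. Of the 11 genes, only DNAJC10, DNAJB4 and DNAJA4 were still called in opposite directions with that scaling.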

How the results depend on the processing

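Spike-in scaling moved most. Members that fell numbered 5 for OCI-LY19, 1 for OCI-LY3, 0 for SU-DHL-10 and 0 for U-2932, where 61 rose. Against OCI-LY3, 6 were higher for OCI-LY19, 2 for SU-DHL-10, and 38 for U-2932, with 1 lower there. Among changes of the genes named by the fixed rule that were called with TMM or with spike-in scaling, the sign turned for BAG5 in OCI-LY3 (0.043) and, in U-2932, for AHSA1 (0.66), BAG1 (0.060), CCT7 (0.19), DNAJB12 (0.30), DNAJB2 (0.25), HSF1 (0.31) and HSPA9 (0.66). Without TMM, 15 fell in OCI-LY19 and 1 in SU-DHL-10, 9 were lower in OCI-LY19 than in OCI-LY3, and BAG1 (-0.031) and DNAJB12 (-0.039) turned in OCI-LY19. Members lower in SU-DHL-10 than in OCI-LY3 numbered 3 with RLE size factors, DESeq2 or a stricter filter and 4 with no filter, where 3 fell in OCI-LY3. With the libraries of the line alone, 1 fell in SU-DHL-10. The cause was not tested.

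Leaving out 1 library in turn, members rose and fell in SU-DHL-10 in 9 to 15 and 0 to 5, in OCI-LY3 in 7 to 10 and 1 to 4, in OCI-LY19 in 33 to 36 and 7 to 8, and in U-2932 in 30 to 34 and 13 to 16. The difference between lines was called for 56 to 66 and the 0 h level for 77 to 80. Against OCI-LY3, higher and lower were 5 to 7 and 1 to 4 in SU-DHL-10, 27 to 31 and 1 to 2 in OCI-LY19, and 20 to 24 and 8 to 12 in U-2932. A lone library was assumed to vary like the other groups. The single-member values that follow include many changes not called with all libraries, which had no call to lose. Most of the lost calls were in SU-DHL-10 and OCI-LY3. Of 624 single-member values, 59 lost the call, 6 gained it and 0 turned.

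With the replicate number as a block, 36 rose and 8 fell for OCI-LY19, 35 and 17 for U-2932, 13 and 3 for SU-DHL-10, and 11 and 6 for OCI-LY3. Same-numbered libraries did not deviate together over all genes tested (correlations of -0.042 to 0.042). These correlations include genes of low counts and cannot tell whether such libraries shared a culture or batch. Low counts limit members such as HSPA6, HSPA12A and CCT6B.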
